A study of Mus musculus with 4 samples.

Results

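The liver X, thyroid hormone, ROR, estrogen-related and glucocorticoid receptors are nuclear receptors, transcription factors that bind short DNA motifs through a zinc-finger domain and, in most cases, answer to a small lipophilic ligand. They were taken by name from the probe set annotation of an Affymetrix mouse array, as Nr1h2, Nr1h3, Rora, Thra, Thrb, Esrra, Esrrb, Esrrg and Nr3c1. Of these 9 genes, 8 were named there by at least 1 probe set, with 14 probe sets in all out of 22690. No probe set was named for Nr1h2, which encodes liver X receptor β and was not analysed here. The levels of the 8 were compared between gastrocnemius, the large calf muscle, of 2 MCK-PPARa samples and of 2 non-transgenic (NTG) littermate samples. The MCK-PPARa mice carry PPARα, the fatty acid sensing nuclear receptor, as a transgene overexpressed specifically in muscle, and MCK stands for the muscle creatine kinase promoter. That promoter is active in striated muscle fibres and not in the blood vessels, fat cells or macrophages of the tissue. The sources used here do not give strain, age, sex, diet or the number of transgenic lines, and nothing in them ties a replicate number to an animal, so a p-value reflects only how far these samples spread, which may be technical.

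The receptors meet PPARα at several points. The liver X receptors LXRα and LXRβ bind oxysterols, the thyroid hormone receptors TRα and TRβ bind triiodothyronine, and both kinds, like PPARα, bind DNA as partners of the retinoid X receptors. RORα and the estrogen-related receptors ERRα, ERRβ and ERRγ act on single copies of the core motif and need no known hormone. The estrogen-related receptors work with the coactivator PGC-1α on mitochondrial genes in muscle, and the glucocorticoid receptor, once bound by corticosterone, moves to the nucleus and switches on genes of fuel release and protein breakdown.

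The signals are the authors' MAS5 values on a linear scale, 1 per probe set and array, scaled so that every array had a 2% trimmed mean of about 1500 (1499.98 to 1500.31). A change is the mean log2(signal + 64.2) of MCK-PPARa less that of NTG samples, given with its standard error (SE, n = 2 per group) and tested with limma, which borrows the spread across all genes, and adjusted by Benjamini-Hochberg. With 2 samples in each group, 0.333 is the smallest two-sided p that exact permutation allows. Precision is limited by there being 4 arrays. Signals of different probe sets depend on their probes, so no gene's level is set above another's. Ppara, the gene of the transgene (1449051_at), read 633.4 and 2674.1 in NTG against 7969 and 15226 in MCK-PPARa samples (8.02-fold, adjusted p = 0.21 in limma's test), and whether its probes match the transgene was not examined. The arrays also differed by replicate number, as shown by the 5′ control for 18S RNA, at 2202 and 2313 on replicate 1 arrays against 28.9 and 44.7 on replicate 2 arrays. All 12 listed muscle markers passed the filter on dim probe sets, and their summed signal was between 1377125 and 1651365 on the 4 arrays.

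The receptor genes as a set showed no change that passed the test. Of 8402 genes tested, 5 (0.0595%) passed an adjusted p of 0.05, and none of the 8 receptors was among them. Without adjustment, 490 genes (5.83%) had a p under 0.05, and 1 receptor, Nr1h3, was among these. With NTG replicate 1, NTG replicate 2, MCK-PPARa replicate 1 or MCK-PPARa replicate 2 left out, 80, 72, 150 and 86 genes passed the adjusted test. In these fits 1 group is a single sample, which is assumed to vary like the samples of the other group. Nr1h3 was also the one receptor with both MCK-PPARa samples above both NTG samples, a pattern seen in 20.4% of all genes tested. In the other 7 the groups overlapped, against 34.2% of all genes with groups apart in either direction. The median change of the 8 was 0.054, the same as the 0.054 of all genes tested, and their median change without regard to sign was 0.0663, against 0.28 for all genes. All 8 had a probe set past the filter on dim ones, as had 13 of the 14 probe sets. Read probe set by probe set, 0 of the 14 passed the adjusted test (4 of 20380, or 0.0196%, did), and in 1 the groups lay apart (33.8% of all).

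**Figure D1:**
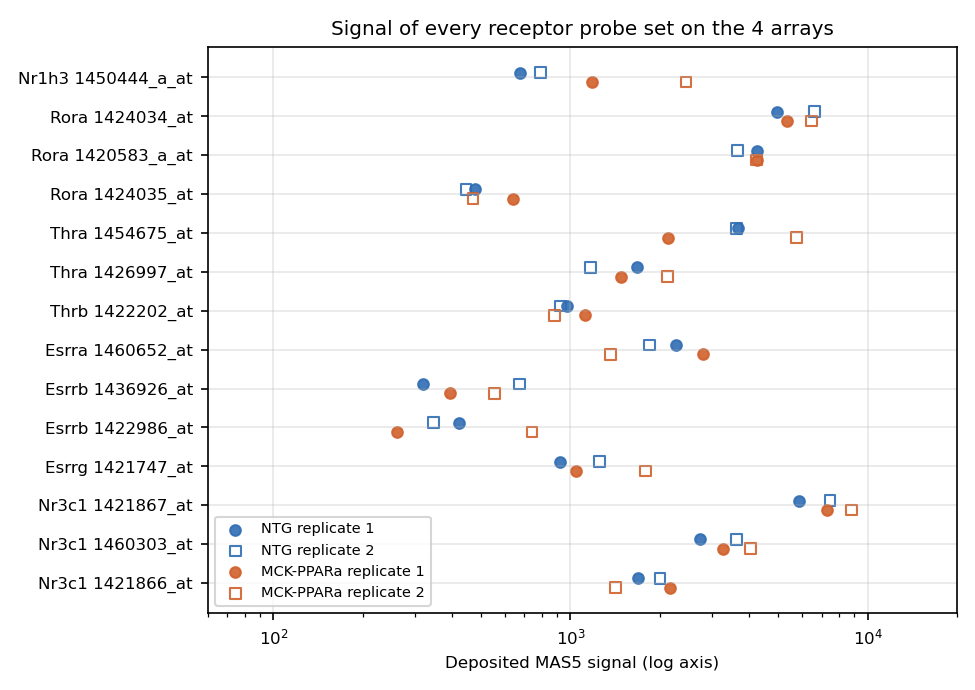
Deposited signal (log axis) of each of the 14 receptor probe sets on the 4 arrays. Blue marks are NTG and orange marks MCK-PPARa samples, filled circles replicate 1 and open squares replicate 2. Only in the Nr1h3 row do both orange marks lie to the right of both blue ones, at 1185 and 2449.7 against 677 and 791.

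Nr1h3 encodes LXRα, the sterol sensor that switches on cholesterol export and fatty acid synthesis genes and that in human macrophages is also a target of LXR itself. Its probe set (1450444_a_at) read 677 and 791 in the NTG samples (replicate 1, then 2) against 1185 and 2449.7 in the MCK-PPARa samples. The groups lay apart, and the transgenic values differed from each other by more than the controls did. The change was 1.15 ± 0.41 (SE), or 2.23-fold with a 95% interval from 1.16 to 4.27. In limma's test the unadjusted p was 0.022 and the adjusted p over all genes 0.67, so the difference did not pass. It stood 270th of 8402 genes by p, and its change without regard to sign was at the 96.6th percentile. The replicate 1 arrays differed by 0.75 and the replicate 2 arrays by 1.56. With single MCK-PPARa samples, where the spread comes from the NTG pair alone, the change was 1.66 without replicate 1 (limma adjusted p = 0.028) and 0.65 without replicate 2 (limma adjusted p = 0.999).

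The start of Nr1h3 is shown because it is the one receptor gene whose groups lay apart. RefSeq (GRCm38.p6) gives 2 starts close together, and the window from 250 bases before to 50 bases after the upstream one, chr2:91195067-91195366 on the minus strand, reads as follows, with capitals from the annotated start onward.
Nr1h3: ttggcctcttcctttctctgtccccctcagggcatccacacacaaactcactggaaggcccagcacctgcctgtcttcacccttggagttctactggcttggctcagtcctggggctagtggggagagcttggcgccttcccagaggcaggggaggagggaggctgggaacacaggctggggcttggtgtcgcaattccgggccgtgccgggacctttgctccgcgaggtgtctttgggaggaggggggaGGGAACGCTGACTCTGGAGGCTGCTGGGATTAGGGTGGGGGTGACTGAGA
Neither window of Nr1h3 holds, on either strand, the core receptor motif AGGTCA, which 16.3% of all 32851 promoter windows hold. The receptor windows read were 13, of 7 genes (Nr1h2, Nr1h3, Rora, Thrb, Esrra, Esrrb and Esrrg), with none for Thra or Nr3c1. Receptor windows on 1 chromosome were left out beforehand, while the 32851 windows kept it. The 13 may therefore not be all the receptor windows. None of the 13 holds any of 4 longer motifs on either strand. These were AGGTCA repeated in the same direction with 1 base between (the PPAR type), the same with 4 bases between (the LXR and thyroid receptor type), TCAAGGTCA of ERR sites, and AGAACA followed after 3 bases by TGTTCT (the glucocorticoid element). All but the last contain the core motif. Among all windows they occur in 0.0396%, 0.0152%, 0.423% and 0.00913%. The absence says only that these letters are not in these windows.

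Cells other than muscle fibres also express Nr1h3, fat cells and macrophages among them, and the summed signals of their markers were above the controls in both transgenic arrays. The 5 adipocyte markers named on the array, of 7 listed, summed to 3999 and 3905 in NTG against 7555 and 7264 in MCK-PPARa samples. Adiponectin (Adipoq) read 1072 and 1504 in NTG against 3477 and 3179.7 in MCK-PPARa samples (1.34 ± 0.31, limma adjusted p = 0.29), and leptin (Lep) read 76.9 to 124.5 on all 4 arrays, under the filter. Resistin (Retn) had 0.81 ± 0.31 and hormone-sensitive lipase (Lipe) 0.30 ± 0.37, neither past the test. Of the 5 adipocyte markers, only Adipoq and Retn had groups apart, each higher (20.4% of all genes tested). In the others the groups overlapped, with 2 of the 5 under the filter. The 7 macrophage and immune markers summed to 8408 and 9112 in NTG against 10603 and 11495 in MCK-PPARa samples, and for 5 of the 7 the groups lay apart, all higher (20.4% of all genes tested), with 2 of the 5 under the filter. The lysozyme gene Lyz2 (0.55 ± 0.30), the surface protein gene Adgre1 (0.47 ± 0.34) and the growth factor receptor gene Csf1r (0.28 ± 0.30) did not pass, and Ptprc and Itgam lay under the filter at 62.3 to 268.5. Endothelial markers summed to 10923 and 12703 in NTG against 15373 and 15735 in MCK-PPARa samples. For 3 of the 7 the groups lay apart, all higher (20.4% of all genes tested). These were the vascular growth factor receptor Kdr (0.91 ± 0.32), the cadherin Cdh5 (0.46 ± 0.31) and Pecam1 (0.35 ± 0.32). Groups overlapped for Tek (0.18), Vwf (0.071), Tie1 (0.0495) and Emcn (-0.084), and no endothelial marker passed the adjusted test. Sums for fibroblasts (194772 to 258582) and red blood cells (3312 to 4853) were also above the controls on both transgenic arrays. The lower transgenic fibroblast sum was 232353 and the higher control sum 229916. Groups were apart and higher for 1 of 6 fibroblast and 1 of 3 red blood cell markers (20.4% of all genes tested). The fibroblast marker Pdgfra was lower, at 1145.5 and 2010.8 in NTG against 803.1 and 762.1 in MCK-PPARa samples (-0.90 ± 0.37, limma adjusted p = 0.80). Sums for nerve (8366 to 11040) and tendon (22193 to 31623) overlapped. No listed marker read 0. The part of any of these cells in the Nr1h3 signal was not tested. In whole muscle RNA, a change in the number of cells of a type and a change in RNA per cell cannot be told apart.

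**Figure D2:**
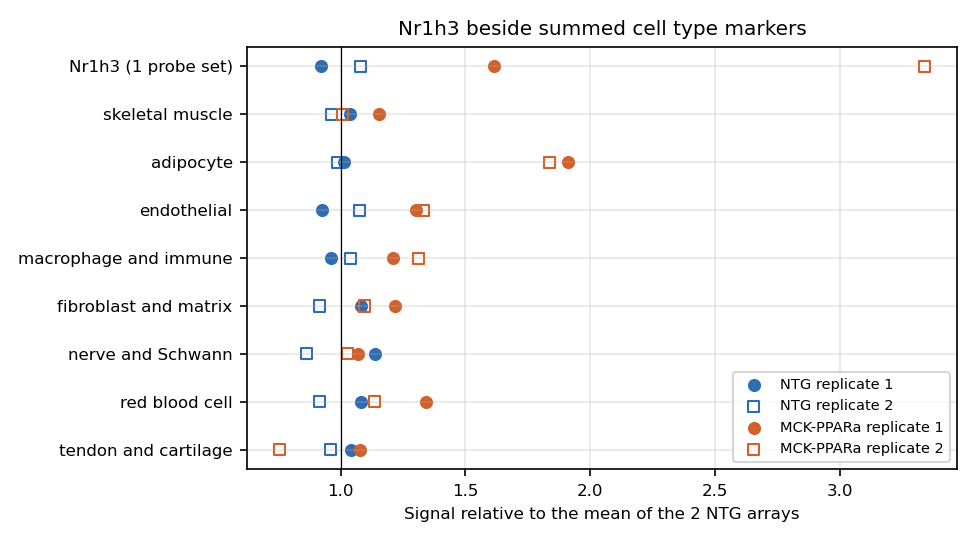
Signal of Nr1h3, and summed signal of the markers of 8 cell types, on each array relative to the mean of the NTG arrays (1 on the horizontal axis). The adipocyte sum went from 3999 and 3905 to 7555 and 7264, while the Nr1h3 signal of 2449.7 in MCK-PPARa replicate 2 lies farthest to the right.

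By the size of the difference between centred profiles over the 4 arrays, the 3 genes most like Nr1h3 were Nipsnap1 (Euclidean distance 0.087 on the log2 scale), Vps37b (0.14) and P2ry4 (0.19). Nipsnap1, a mitochondrial protein gene, read 251.7 and 310.9 in NTG against 440.5 and 1013.6 in MCK-PPARa samples. With 4 arrays such likeness is a description of these samples.

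The thyroid hormone receptors showed no change past the test, and the MCK-PPARa samples disagreed with each other over Thra. Thra encodes TRα, the main thyroid hormone receptor of skeletal muscle and heart. Its brighter probe set (1454675_at) read 3676 and 3618 in NTG against 2137 and 5776 in MCK-PPARa samples. The transgenic samples lay on either side of the controls, with a difference of -0.76 between the replicate 1 arrays and of 0.67 between the replicate 2 arrays. The change was -0.050 ± 0.456 (SE, limma adjusted p = 0.996), with a 95% interval from -1.11 to 1.01. The second probe set (1426997_at) read 1680.4 and 1166 in NTG against 1478 and 2119 in MCK-PPARa samples, a change of 0.32 ± 0.36 in the fit of all probe sets (limma adjusted p = 0.98). The mean of both gave 0.14, so the sign for Thra depends on the probe set. In the reference annotation Thra and the receptor gene Nr1d1 overlap by 1075 bases, and neither strand nor position of the probes was examined.

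Thrb, which encodes TRβ, the receptor of the pituitary feedback loop and of liver, read 974 and 924 in NTG against 1123 and 885 in MCK-PPARa samples (1422202_at). The groups overlapped fully, with both NTG values inside the range of the transgenic ones. The change was 0.068 ± 0.335 (SE, limma adjusted p = 0.996), with a 95% interval from -0.71 to 0.84. The within-array log2 ratio of Thra over Thrb was 1.85 and 1.90 in NTG against 0.89 and 2.62 in MCK-PPARa samples. The groups differed by -0.12 (exact permutation p = 1, two-sided, n = 2 per group). A start of Thrb is shown because it is the only one of the 13 receptor windows with the core motif, 1 exact match on the window's own strand from 184 bases before the start. The window is chr14:17660710-17661009 on the plus strand of GRCm38.p6, from RefSeq, with the match in capitals.
Thrb: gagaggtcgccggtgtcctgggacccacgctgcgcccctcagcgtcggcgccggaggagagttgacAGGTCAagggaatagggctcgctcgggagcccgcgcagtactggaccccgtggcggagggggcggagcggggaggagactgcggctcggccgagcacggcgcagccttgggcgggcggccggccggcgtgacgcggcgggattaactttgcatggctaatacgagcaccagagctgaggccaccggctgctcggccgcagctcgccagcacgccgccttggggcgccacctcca

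The ROR family was represented by Rora, which encodes RORα, an activator of clock and lipid genes that competes with the Nr1d1 and Nr1d2 repressors for the same sites. Its brightest probe set (1424034_at) read 4939 and 6615 in NTG against 5345 and 6460.3 in MCK-PPARa samples. The values of the transgenic samples lay within the range of the controls. The change was 0.040 ± 0.309 (SE, limma adjusted p = 0.996), with a 95% interval from -0.68 to 0.76. The second probe set (1420583_a_at) read 4239 and 3657 in NTG against 4234 and 4233 in MCK-PPARa samples, and the dimmest one (1424035_at) read 476 and 444 against 639 and 470.2. Their changes of 0.10 ± 0.27 and 0.23 ± 0.48 did not pass (limma adjusted p = 0.99 and 0.98 over all probe sets). The related gene Rorb lay under the filter, at 120.2 to 297.3.

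Of the estrogen-related receptors, all 3 were measured and none changed past the test. Esrra encodes ERRα, the partner of PGC-1α on oxidative phosphorylation genes. It read 2269 and 1845 in NTG against 2788 and 1364 in MCK-PPARa samples (1460652_at). The transgenic samples spanned the controls, the higher and the lower extreme both being transgenic. The change was -0.065 ± 0.390 (SE, limma adjusted p = 0.996), with a 95% interval from -0.97 to 0.84.

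Esrrg encodes ERRγ, which in mouse muscle favours oxidative fibres and vessels. It read 922 and 1249.9 in NTG against 1047 and 1789.5 in MCK-PPARa samples (1421747_at). The higher value of each group came from replicate 2, and the groups overlapped. The change was 0.33 ± 0.37 (SE, limma adjusted p = 0.97), with a 95% interval from -0.53 to 1.20. Between the replicate 1 arrays it was 0.17 and between the replicate 2 arrays 0.50.

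Esrrb encodes ERRβ, best known from stem cells and placenta. Its brighter probe set (1436926_at) read 318 and 673.5 in NTG against 392 and 554.5 in MCK-PPARa samples, at the 40.6th percentile of signal, just past the filter. The transgenic values lay inside the range of the controls, and the change was 0.0009 ± 0.556 (SE, limma adjusted p = 0.9999). The second probe set (1422986_at), under the filter, read 423 and 347 in NTG against 261 and 741 in MCK-PPARa samples, with the transgenic samples on both sides of the controls. The log2 ratio of Esrra over Esrrg was 1.24 and 0.54 in NTG against 1.36 and -0.38 in MCK-PPARa samples, a difference of -0.40 between groups (exact permutation p = 1, two-sided, n = 2 per group). The differences for Esrra over Esrrb (-0.066) and Esrrb over Esrrg (-0.33) had exact permutation p of 1 and 0.667. Of 4 such pairs of relatives compared, counting Thra over Thrb, none could reach a p below 0.333.

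Nr3c1 encodes the glucocorticoid receptor. Its brightest probe set (1421867_at) read 5891 and 7478 in NTG against 7308 and 8834 in MCK-PPARa samples. The transgenic sample was the higher one within both replicate numbers, by 0.31 and 0.24, and the groups overlapped by a narrow margin. The change was 0.27 ± 0.30 (SE, limma adjusted p = 0.97), with a 95% interval from -0.43 to 0.98. The next probe set (1460303_at) followed the same order, with 2721 and 3629 in NTG against 3260 and 4034 in MCK-PPARa samples (0.20 ± 0.30, limma adjusted p = 0.98 over all probe sets). The dimmest of the 3 (1421866_at) did not, with 1681 and 1998 in NTG against 2156 and 1419 in MCK-PPARa samples (-0.064 ± 0.342, limma adjusted p = 0.997 over all probe sets).

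**Figure D3:**
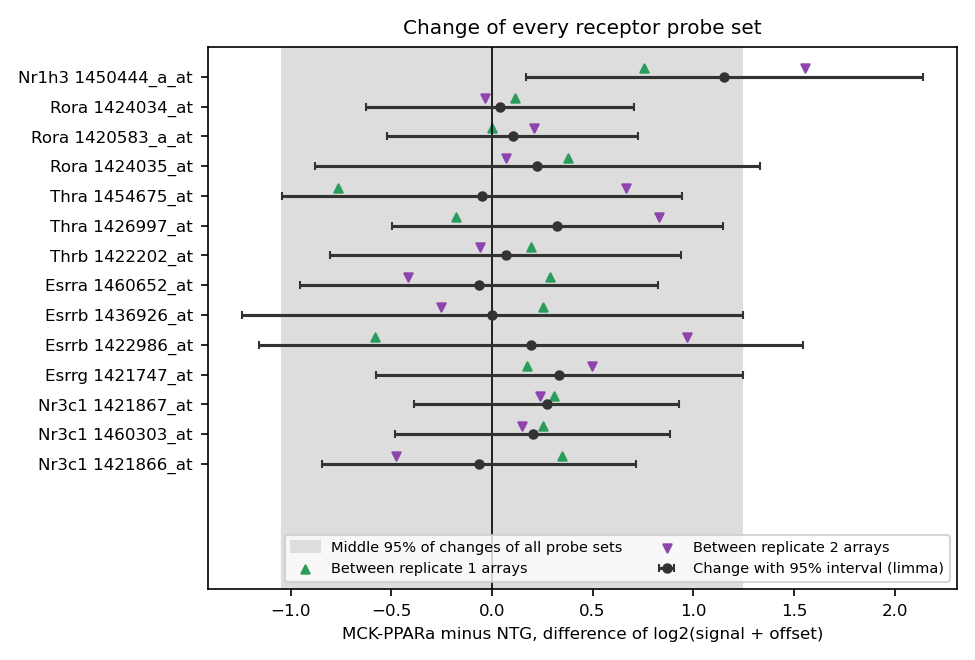
Change of each receptor probe set, MCK-PPARa minus NTG, on the log2(signal + 64.2) scale, from the fit of all 20380 probe sets with 1 gene symbol. Black points carry 95% intervals, green and purple triangles give the differences between the replicate 1 and between the replicate 2 arrays, and the grey band holds the middle 95% of all changes (-1.045 to 1.241). Every interval but that of Nr1h3 spans 0. The triangles lie on opposite sides of 0 for Esrra, Thrb, both probe sets of Thra and of Esrrb, Rora (1424034_at and 1420583_a_at) and Nr3c1 (1421866_at).

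For most receptor probe sets the replicate number went with a larger difference than the genotype did, for some by a narrow margin. In 12 of the 14 the difference between replicate 2 and replicate 1 arrays was larger in size than that between MCK-PPARa and NTG, against 55.4% of all probe sets. The exceptions were Nr1h3 and the second Thra probe set. Among the 12, the margin was narrow for Rora 1420583_a_at (-0.1052 between replicate numbers against 0.1031 between genotypes). The 14 probe sets come from 8 genes, which counts some genes more than once. Both replicate 2 arrays were above both replicate 1 arrays for 5 of the 14 (27.5% of all probe sets), which were the brightest Rora and Esrrb probe sets, Esrrg and the brighter pair for Nr3c1. They were below for 4 (16.8% of all), which were the other Rora probe sets, Thrb and Esrra. Rora therefore split by probe set, with a replicate difference of 0.34 for 1424034_at and of -0.11 and -0.24 for the others. For Esrra the difference was -0.64 and for Esrrg 0.58. The 18S control signals moved with the same split, and their part in these differences was not tested.

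**Figure D4:**
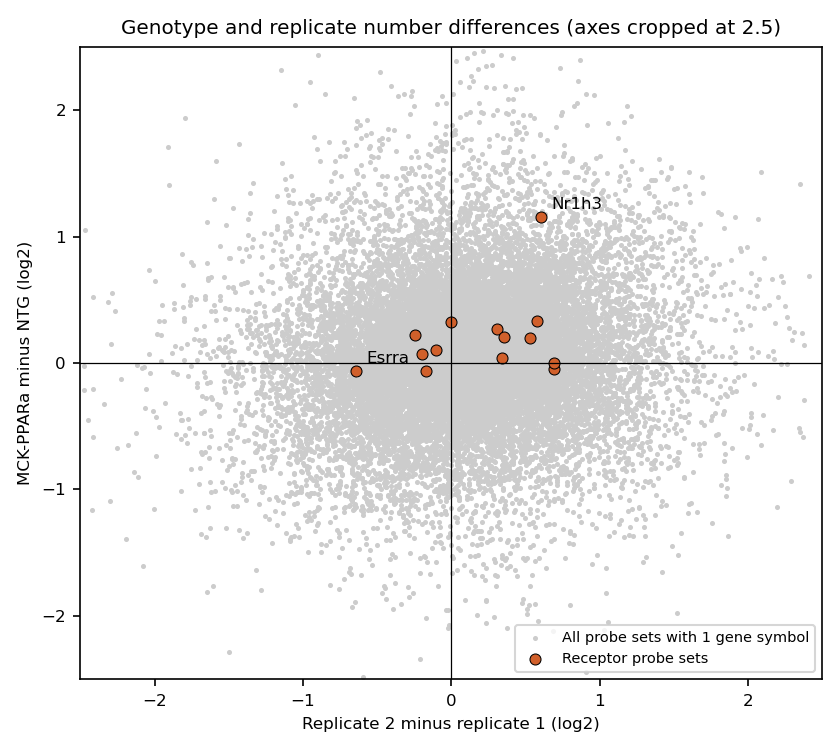
Difference between genotypes against difference between replicate numbers for all probe sets with 1 gene symbol (grey) and the 14 receptor probe sets (orange), both in log2 units, with axes cropped at 2.5. Most receptor points lie close to the horizontal zero line and are spread along it, from -0.64 for Esrra to 0.69 for the brightest Thra and Esrrb probe sets, with Nr1h3 alone above 1 on the vertical axis.

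The genes that carry the ligands of these receptors, their DNA-binding partners and their targets were read from lists made by role, whose median change is set beside the 0.054 of all genes. No gene of the 10 lists passed the adjusted test. With the replicate number as a block 18 did, and the labels do not say what that number marks. Counts at an unadjusted p under 0.05 are given instead, where 3.32% of all genes were higher and 2.51% lower. Of 21 partners and coregulators listed, 17 were named on the array and 15 passed the filter. Of the 15 tested, 5 had a change above 0 (55.5% of all genes) and 10 below, and the median was -0.10. It was -0.18, 0.011, 0.0018 and -0.26 with NTG replicate 1, NTG replicate 2, MCK-PPARa replicate 1 or MCK-PPARa replicate 2 left out, the order in which such values are given below. Rxrg, the retinoid X receptor most specific to striated muscle, was the one with an unadjusted p under 0.05 and read 2629.7 and 2613 in NTG against 1479 and 1599 in MCK-PPARa samples (-0.75 ± 0.29, limma adjusted p = 0.76). The acetyltransferase gene Crebbp (-0.79 ± 0.37) and the corepressor enzyme gene Hdac3 (-0.62 ± 0.40) also had values below 0. Ppargc1b, which encodes PGC-1β, had 0.56 ± 0.37, and Ppargc1a, which encodes PGC-1α, read 1735 and 1777 in NTG against 1523 and 1901 in MCK-PPARa samples (-0.043 ± 0.301).

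Of the 11 closest related receptors listed, 7 were named on the array and only the repressors Nr1d1 and Nr1d2 passed the filter, and their values went in opposite directions. Nr1d1 read 3945 and 5000.2 in NTG against 5682 and 6079.7 in MCK-PPARa samples (0.40 ± 0.30), and Nr1d2 read 9433 and 7103 against 6385 and 3012 (-0.89 ± 0.40). Neither passed (limma adjusted p = 0.96 and 0.89). The difference between them was not tested.

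Genes of ligand supply gave few measured members and no call, with 3 of 8 listed genes tested for oxysterol handling, 3 of 8 for thyroid hormone supply and 8 of 10 for glucocorticoid supply and chaperones. Their medians were -0.25, 0.21 and 0.005, and only the first kept its sign whichever sample was left out. With each sample left out in turn the first was -0.11, -0.28, -0.15 and -0.057, the second 0.57, -1.32, -0.16 and 0.13, and the third -0.20, -0.0018, 0.031 and -0.22. In oxysterol handling, the mitochondrial sterol hydroxylase Cyp27a1 had -0.52 ± 0.36, the brain cholesterol hydroxylase Cyp46a1 0.41 ± 0.37 and the sterol carrier Osbp -0.25 ± 0.31. In thyroid hormone supply, the activating deiodinase Dio2 read 694 and 749.9 in NTG against 798 and 1636 in MCK-PPARa samples (0.62 ± 0.42), and the cytosolic hormone-binding protein Crym read 717 and 636 against 506 and 107.5 (-1.24 ± 0.69). Transthyretin (Ttr), a plasma carrier made in liver, read 3880 and 31.7 in NTG against 848.2 and 486.9 in MCK-PPARa samples (0.21 ± 1.43). Both replicate 1 arrays were above both replicate 2 arrays for Ttr (16.8% of all probe sets). The same held for Apoa1, Apoc1, Apoe and Apoc3 of the target lists below. For glucocorticoids, the activating enzyme Hsd11b1 had 0.0057 ± 0.29, the inactivating Hsd11b2 -0.65 ± 0.55, the receptor chaperones Hsp90aa1 -0.40 ± 0.32 and Hspa8 0.23 ± 0.29, and the co-chaperone Fkbp5 -0.51 ± 0.30.

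LXR target genes had the highest median of the target lists, 0.42 over 18 tested of 22 listed, against 0.054 for all genes. Of the 18, 14 had a change above 0 (55.5% of all genes) and 9 had both transgenic samples above both controls (20.4% of all genes), with 0 in the opposite direction (13.8% of all). An unadjusted p under 0.05 was reached by 6, all higher, Nr1h3 itself among them. The desaturase Scd1 read 5040.1 and 3024 in NTG against 34036 and 11421 in MCK-PPARa samples (2.32 ± 0.52, limma adjusted p = 0.26). Srebf1, the lipogenic transcription factor, read 3789.5 and 2899 against 13298 and 7404 (1.56 ± 0.37, limma adjusted p = 0.29). Lpcat3, which remodels membrane phospholipids, read 2735 and 3652 against 6606 and 9329 (1.30 ± 0.33, limma adjusted p = 0.34). Lipoprotein lipase (Lpl) had 1.29 ± 0.44. The list holds both lipid synthesis and cholesterol export genes. Fatty acid synthase (Fasn) had 1.04 ± 0.38. The exporters Abca1 (0.79 ± 0.38), Abcg1 (0.51 ± 0.39), Abcg5 (0.38 ± 0.50), Abcg4 (-0.13 ± 0.33) and Abcg8 (-0.12 ± 0.35) had unadjusted p of 0.072 or more. Scd1 and Lpl are also textbook PPAR targets, and the list was chosen with earlier results of these data known, so it is no independent evidence about LXR. Fat cells also express Scd1, Srebf1, Lpl and Fasn, and the summed adipocyte markers (3999 and 3905 in NTG, 7555 and 7264 in MCK-PPARa samples) and Adipoq (1.34 ± 0.31) were higher with them, a part that was not tested.

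Thyroid hormone targets went both ways, with 7 of 15 tested (22 listed) above 0 (55.5% of all genes) and a median of -0.14. That median was 0.076 with no filter, and -0.013, -0.051, 0.033 and -0.11 with each sample left out in turn. At an unadjusted p under 0.05, 2 were higher and 5 lower. The lactate exporter Slc16a3 (-1.64 ± 0.29, limma adjusted p = 0.15), the slow myosin Myh7 (-2.74 ± 0.49, limma adjusted p = 0.16) and the glucose transporter Slc2a4 (-1.12 ± 0.29, limma adjusted p = 0.37) had both transgenic values under both control values. The lipogenic Thrsp was higher in both (1.78 ± 0.35, limma adjusted p = 0.20). Textbook responses of these genes to the hormone are themselves of mixed sign, since it represses Myh7 and induces Slc2a4 and Thrsp.

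ROR targets had a median of 0.12 over 9 tested of 17 listed, and the clock activator Bmal1, listed as Arntl, had 0.12 ± 0.62. The sign of the median depended on single samples, with -0.027, 0.35, 0.33 and -0.17 when each was left out in turn. The caveolin gene Cav3 was the one with an unadjusted p under 0.05, at 5705 and 4772 in NTG against 2944 and 2609 in MCK-PPARa samples (-0.90 ± 0.29, limma adjusted p = 0.59). The lipid droplet gene Plin2 had 0.59 ± 0.33, and Nr1d1 had the value given above. Apoc3 read 1181 and 144.7 in NTG against 823.2 and 547.6 in MCK-PPARa samples (0.53 ± 0.80).

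ERR targets had a median of 0.12 over 28 tested of 31 listed. With each sample left out in turn it was 0.060, 0.097, 0.15 and 0.094. Under quantile normalization it was 0.017 (0.023 for all genes) and under median centring 0.022 (-0.048 for all genes). Only Pdk4 (2.39 ± 0.49, limma adjusted p = 0.21) and Fabp3 (1.73 ± 0.59, limma adjusted p = 0.65) had an unadjusted p under 0.05, both higher and both also textbook PPARα targets. Pdk4 encodes the kinase that shuts off pyruvate oxidation, and Fabp3 the muscle fatty acid binding protein. The medium-chain dehydrogenase Acadm had 0.61 ± 0.29 and Errfi1, a feedback inhibitor of the EGF receptor, -0.68 ± 0.41. Cytochrome c (Cycs), a direct ERRα target, read 32724 and 56800.4 in NTG against 29164.5 and 62827 in MCK-PPARa samples, a change of -0.010 ± 0.453.

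Glucocorticoid targets had a median of 0.058 over 26 tested of 29 listed, with 6 higher and 3 lower at an unadjusted p under 0.05. With each sample left out in turn the median was 0.22, -0.047, 0.095 and 0.25. The higher ones with the smallest p were Angptl4, the secreted inhibitor of lipoprotein lipase, at 138.5 and 169.4 in NTG against 2373 and 1506 in MCK-PPARa samples (3.17 ± 0.45, limma adjusted p = 0.082), and the cell cycle inhibitor Cdkn1a (2.23 ± 0.43, limma adjusted p = 0.19), followed by Pdk4 and the PI3-kinase subunit Pik3r1 (1.75 ± 0.40, limma adjusted p = 0.27). The lower ones were Sgk1 (-1.49 ± 0.45), Cebpd (-1.12 ± 0.38) and Tsc22d3 (-0.80 ± 0.32), with limma adjusted p of 0.50 to 0.78. Tsc22d3, which encodes the glucocorticoid-induced leucine zipper, read 10265 and 9535 in NTG against 6990.3 and 4563 in MCK-PPARa samples. Fkbp5, a widely used marker of glucocorticoid receptor activity, read 2546 and 2947 against 1750.1 and 2078, also below in both samples. Its change was -0.51 ± 0.30 (limma adjusted p = 0.96). The other higher ones at an unadjusted p under 0.05 were Mt1 (1.06 ± 0.34) and Bcat2 (1.00 ± 0.42). Groups overlapped for Per1 (0.049), Klf9 (0.12), Zbtb16 (0.006), Klf15 (-0.051) and Fbxo32 (-0.046). Of the 26, 7 had groups apart and higher (20.4% of all genes) and 5 lower (13.8%). The direction of receptor activity was not tested. Angptl4 and Pdk4, on the higher side, are PPARα targets as well.

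**Figure D5:**
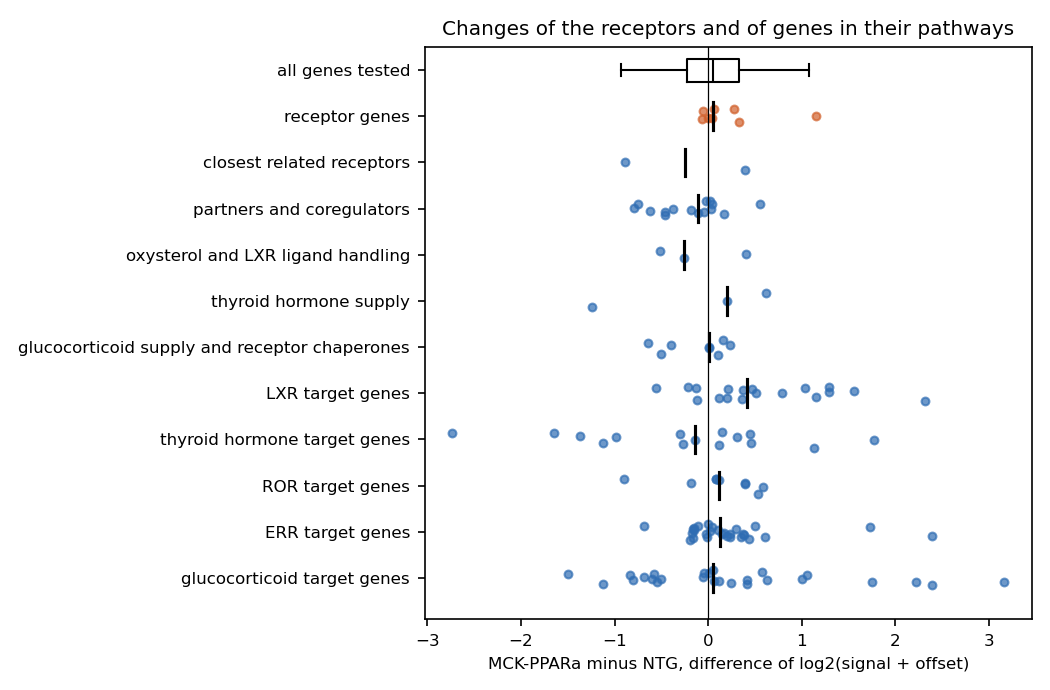
Change of each tested gene, MCK-PPARa minus NTG on the log2(signal + 64.2) scale, for the 8 receptors (orange) and the 10 lists of related receptors, partners, ligand supply and targets (blue), with the median of each list as a black bar. The box gives the quartiles and the whiskers the middle 95% of all 8402 genes. The receptors cluster near 0 apart from Nr1h3 at 1.15, while members of the target lists reach from -2.74 (Myh7) to 3.17 (Angptl4).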

How the data were processed

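Gastrocnemius RNA of 2 MCK-PPARa and 2 NTG samples had been measured on an Affymetrix mouse array, 1 per sample. The authors deposited linear signal intensities for 22690 probe sets, made with MAS5 per the submitters' processing notes. The sources used here give neither its version nor its settings or detection calls, so which values were above background is unknown. Since the trimmed means agreed, no further normalization was applied. Of the probe sets, 20380 carry 1 gene symbol in the platform annotation (691 carry several and 1555 none) and were used. Values were transformed as log2(signal + 64.2), the offset being 10% of the median of all values. Probe sets with a mean under the 40th percentile of non-control probe sets were left out, and a gene was read from its brightest probe set, leaving 8402 genes. The genotypes were compared with limma 3.58.1 in R 4.3.3 (lmFit, eBayes with a variance trend, two-sided, 7.78 degrees of freedom, of which 2 from the arrays). Receptor probe sets were also read from a fit of all 20380 without a filter. The procedure was tested on simulated data.

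The receptors and lists were chosen with earlier results of these data known, the lists from textbook knowledge, and no set test was run. Named genes were all receptors, any list member past the threshold, up to 4 members of each pathway list and up to 3 of the adipocyte, macrophage and endothelial markers by smallest p. Fasn, the Abc exporters, Ppargc1a, Hsd11b1, Arntl, Rorb, Cycs, Sgk1, Cebpd, Tsc22d3, Lep, Ptprc and Itgam were chosen after their values were seen. So were Mt1, Bcat2, Per1, Klf9, Zbtb16, Klf15, Fbxo32, Tek, Vwf, Tie1, Emcn, Pdgfra, Apoa1, Apoc1 and Apoe. Apart from Pdgfra, markers of muscle, fibroblast, nerve, red blood cell and tendon are given as sums or counts only. Promoter windows come from RefSeq (GRCm38.p6), and none was read for Thra or Nr3c1. Alternatives were other offsets, scalings, filters and probe set rules, no variance trend, the replicate number as a block, and leaving out each sample.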

Additional observations from a re-analysis of the deposited data

How the results depend on the processing

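No receptor gene passed an adjusted p of 0.05 in 12 of the 13 alternatives. The exception was Nr1h3 without MCK-PPARa replicate 1, so the count of receptors ran from 0 to 1 with single samples left out. The Nr1h3 change ran from 0.65 to 1.66 there, and from 0.96 to 1.21 with other offsets. Its limma adjusted p was 0.085 with the replicate number as a block and 0.0284 to 0.999 over all alternatives. Genes past the threshold numbered 5, and 2 under quantile normalization, 1 under median centring, 16 with the mean of probe sets, 3 without a variance trend, 211 with the replicate block, and 72 to 150 with single samples left out. Of the pathway list genes, 0 passed, and 1 with the mean of probe sets (Angptl4), 18 with the replicate block (Angptl4, Cdkn1a, Cebpd, Fabp3, Gpd2, Lpcat3, Lpl, Mt1, Myh7, Pdk4, Pik3r1, Scd1, Sgk1, Slc16a3, Slc2a4, Srebf1, Thrsp and Ucp3) and 6 to 11 with single samples left out. The labels do not say what a replicate number marks, and deviations from the group means correlated between same-numbered samples (r = 0.47 over the genes tested, a description since genes are not independent). The block changed no receptor's call. For the Ppara probe set the limma adjusted p over all probe sets was 0.26, and 0.00081 with the block. Median centring lowered the median change of all genes from 0.0545 to -0.0476, a shift of -0.10.

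Signs of changes near 0 turned. Esrrb was -0.0128 with the large offset, -0.12 under quantile normalization, -0.10 under median centring and -0.47 to 0.48 with single samples left out. Thra was 0.010, Thrb -0.012, Thra over Thrb 0.022 and Esrra over Esrrb 0.028 under quantile normalization. Rora was -0.063 and Thrb -0.034 under median centring, and Thra 0.14 with the mean of probe sets. With single samples left out, changes ran from -0.17 to 0.25 for Rora, -0.75 to 0.65 for Thra, -0.093 to 0.23 for Thrb, -0.56 to 0.43 for Esrra, -0.035 to 0.70 for Esrrg, -0.0019 to 0.21 for the second Rora probe set, -0.46 to 0.85 for the second Esrrb probe set, -0.0009 to 0.41 for Nr3c1 (1460303_at), -0.36 to 0.23 for Nr3c1 (1421866_at), -0.98 to 0.75 for Thra over Thrb, -0.78 to 0.65 for Esrra over Esrrb and -1.27 to 0.47 for Esrra over Esrrg. The ratios without single samples were added after seeing the data.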
